A study of Homo sapiens with 4 samples.

Results

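A set of 8 long RNAs were followed by name across all libraries of a melanoma RNA-sequencing series: the nuclear RNAs MALAT1 and NEAT1, and GAS5, SNHG1, SNHG5, SNHG6, SNHG8 and SNHG12, which carry small nucleolar RNAs (snoRNAs) in their introns. Of these 8 names, 7 matched a row among the 18175 genes and loci of the deposited table, and SNHG5 was not analysed here. The libraries came from A375 and SK-MEL-28, established human melanoma cell lines grown in DMEM with 10% serum. Each line had received either siNC, the control small interfering RNA (siRNA), or siLINC01291, an siRNA named for the long RNA LINC01291. The treatment text also uses the letters EL, which it does not explain. Every combination of line and siRNA was a single library, so the only repeat of the treatment is the other line, and the only repeat of a line is its other siRNA. Nothing in the labels describes separate cultures, and p-values measure only the spread between these libraries.

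MALAT1 is a long RNA of nuclear speckles, the bodies where splicing factors collect, and NEAT1 is the RNA scaffold on which paraspeckles form. GAS5 and the SNHG genes are transcribed as spliced hosts: snoRNAs are processed out of their introns and guide chemical modification of ribosomal and other RNAs, while the joined exons are exported and, for several hosts, degraded by nonsense-mediated decay when ribosomes read them. Several of these hosts begin with a 5′ terminal oligopyrimidine tract, the C and T stretch that also opens ribosomal protein messages. In many cells, several of these RNAs count among the abundant long RNAs.

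The libraries held between 29351240 and 31815336 counts, and between 11791 and 12838 genes reached an FPKM (a level corrected for depth and gene length) of 1. LINC01291, the targeted RNA, had 827 counts with siNC and 304 with siLINC01291 in A375, and 998 and 454 in SK-MEL-28. It fell by 1.34 on the log2 scale over both lines (SE 0.13, edgeR's quasi-likelihood test, Benjamini-Hochberg adjusted p = 0.0171). The call was lost with limma on log2(FPKM + 1) (log2 -1.06, adjusted p = 0.0757), with limma on log2(FPKM + 0.1) (log2 -1.28, adjusted p = 0.120) and in edgeR without the line as a block (log2 -1.30). All 10 melanocytic markers were listed: 5 of them reached an FPKM of 1 in the A375 libraries and 10 in the SK-MEL-28 libraries. Their summed FPKM was 95.4 and 135 in A375 against 1624 and 1943 in SK-MEL-28. The markers differed within A375. MLANA, a melanosome antigen, was at an FPKM of 0.830 and 0.774 there, while SOX10 was at 80.1 and 118 and MITF at 5.68 and 5.48. None of the 3 blood and 2 endothelial markers was listed. The epithelial list had 3 of 4 markers listed, with KRT18 at an FPKM of 71.1 in both A375 libraries and at 4.90 and 4.60 in SK-MEL-28. Mitochondrial genes took 3.28 and 2.87% of the counts in A375 and 6.35 and 6.38% in SK-MEL-28.

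The 7 RNAs together took 0.184 and 0.206% of all counts in the A375 siNC and siLINC01291 libraries, and 0.102 and 0.103% in the corresponding SK-MEL-28 libraries. GAS5 and SNHG6 had the highest levels per length in all 4 libraries, and SNHG8 and SNHG12 the lowest. By FPKM among all listed genes, SNHG12 ranked between 4268 and 7761 and SNHG8 between 6410 and 7932. GAS5 led in both A375 libraries and SNHG6 in both SK-MEL-28 libraries by the deposited FPKM, which rests on the deposited lengths given below. NEAT1 ranked behind SNHG1 in A375 with siNC and ahead of it in the other 3 libraries. MALAT1 ranked between these groups, above SNHG12 and below the rest, in every library. In all 4 libraries every one of the 7 was above the FPKM of 1 used for testing, so none was lost to the filter on low values.

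**Figure D1:**
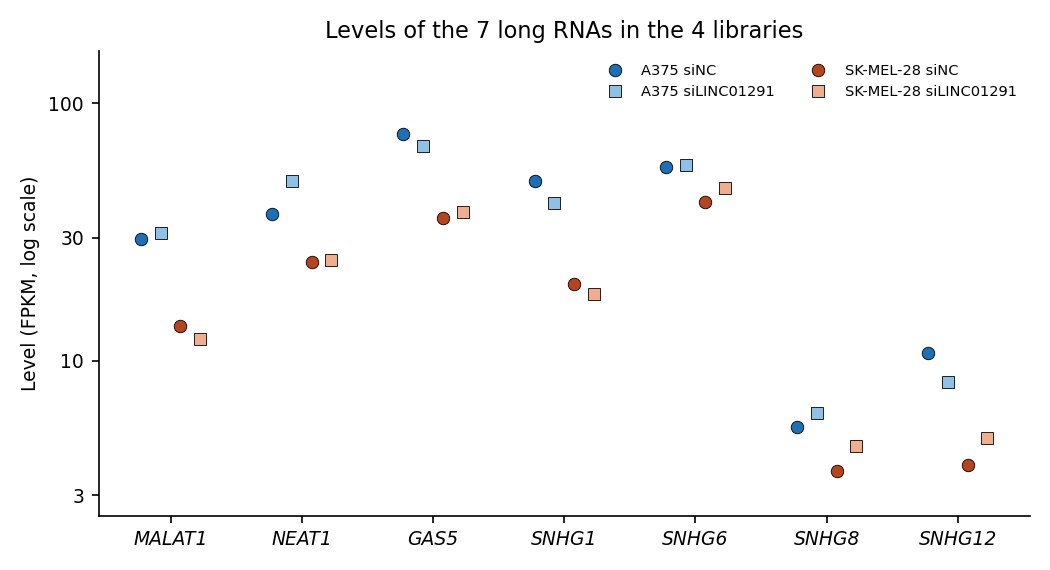
FPKM as deposited (vertical axis, log scale) of the 7 long RNAs in the 4 libraries; blue marks A375 and orange SK-MEL-28, circles siNC and squares siLINC01291, 1 point a library. For each RNA the blue points lie above the orange ones, closest for SNHG6 (56.4 and 57.4 against 41.4 and 46.8) and SNHG8 (5.53 and 6.24 against 3.71 and 4.68).

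MALAT1 (ENSG00000251562) lies on chromosome 11, chr11:65497688-65506516, plus strand, in the GENCODE 29 annotation of GRCh38, where it is a long intergenic RNA. It had an FPKM of 29.8 in A375 with siNC, 31.4 in A375 with siLINC01291, 13.6 in SK-MEL-28 with siNC and 12.2 in SK-MEL-28 with siLINC01291. The corresponding counts were 8144, 8858, 3543 and 3161. Its rank by FPKM among all listed genes was 1522 and 1421 in A375, and 3377 and 3763 in SK-MEL-28, so it stood well below the top of the table. The libraries were made from RNA selected with oligo(dT), which binds runs of A, and most mature MALAT1 ends without a poly(A) tail. Its 3′ end is made by cleavage just after an A-rich tract that is written in the genome, and the released downstream piece folds like a transfer RNA. That tract is printed below with the bases around it, because it is the longest run of A in any annotated MALAT1 transcript (13 A, in capitals, in bases 8287 to 8399 of the 8708-base transcript MALAT1-202).
MALAT1-202: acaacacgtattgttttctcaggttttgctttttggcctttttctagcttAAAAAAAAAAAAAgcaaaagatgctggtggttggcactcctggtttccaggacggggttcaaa
A run of at least 12 A was found in 1 of 17 MALAT1 transcripts, against 4.31% of all annotated transcripts and 24.4% of those of at least 5000 bases. How much such a run contributed to capture was not tested, and the level of MALAT1 here is the level in oligo(dT)-selected RNA only.

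NEAT1 (ENSG00000245532), chr11:65422774-65445540, plus strand, lies on the same chromosome arm upstream of MALAT1 and is annotated as a long intergenic RNA. Its FPKM was 37.3 and 49.8 in A375 (siNC, then siLINC01291) and 24.2 and 24.5 in SK-MEL-28. With 26285, 36222, 16213 and 16442 counts it had the most reads of the 7 RNAs, and it ranked 105, 59, 202 and 191 by count among all listed genes. By FPKM its ranks were only 1131, 780, 1843 and 1826, since the deposited length is 22767 bases. NEAT1 makes a short polyadenylated form and a long form that lacks a poly(A) tail and builds the paraspeckle. Its longest annotated transcript, NEAT1-202, holds a run of 22 A within bases 17996 to 18117. That transcript is the 1 of 8 with a run of at least 12 A, and the part of the run in capture was not tested. The gene counts do not separate the forms, and the FPKM divides reads of both by the length of the long one.

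GAS5 (ENSG00000234741, chr1:173863900-173868882, minus strand) was the most highly expressed host in A375. Its FPKM was 76.3 and 68.0 in A375 with siNC and siLINC01291, and 35.7 and 37.8 in SK-MEL-28, from 11436, 10519, 5097 and 5378 counts. SNHG1 (ENSG00000255717, chr11:62851988-62855914, minus strand) had an FPKM of 49.8 and 40.9 in A375 and 19.9 and 18.1 in SK-MEL-28, from 6124, 5185, 2330 and 2114 counts. For both hosts the 2 A375 libraries were clear of the 2 SK-MEL-28 libraries, and for SNHG1 the siLINC01291 library was the lower one in each line. SNHG12 (ENSG00000197989, chr1:28578538-28583132, minus strand) was at 10.7 and 8.30 in A375, against 3.93 and 5.02 in SK-MEL-28, from 1412, 1130, 494 and 630 counts. SNHG8 (ENSG00000269893, chr4:118278709-118279823, plus strand) was at 5.53 and 6.24 in A375, against 3.71 and 4.68 in SK-MEL-28, from 1131, 1317, 723 and 909 counts. SNHG12 was lower with siLINC01291 in A375 and higher in SK-MEL-28, while SNHG8 was higher with siLINC01291 in both lines.

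The starts of these hosts are shown because the pyrimidine tract is the sequence feature by which the family is known. GAS5 is given as the first 60 bases of a GENCODE transcript, with its opening run of C and T in capitals. That run, of 6 bases, is the longest opening run among the 29 annotated GAS5 transcripts. The GAS5 line therefore shows the tract at its longest and not a typical start of the gene. For SNHG1 (chr11:62855846-62855905, minus strand), SNHG8 (chr4:118278742-118278801, plus strand) and SNHG12 (chr1:28581834-28581893, minus strand) the line holds 20 bases before and 40 from the RefSeq gene start on GRCh38.p14, with the run of C and T that spans the start in capitals. MALAT1 (chr11:65497718-65497777, plus strand) is shown the same way at the more upstream of its 2 RefSeq starts.
GAS5: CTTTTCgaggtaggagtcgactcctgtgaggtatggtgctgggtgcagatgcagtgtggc
SNHG1: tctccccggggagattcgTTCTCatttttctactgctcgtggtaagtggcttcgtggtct
SNHG8: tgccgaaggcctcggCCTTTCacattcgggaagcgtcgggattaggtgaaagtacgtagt
SNHG12: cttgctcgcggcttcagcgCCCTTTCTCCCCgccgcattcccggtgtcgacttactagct
MALAT1: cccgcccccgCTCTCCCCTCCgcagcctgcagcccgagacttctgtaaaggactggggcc
The runs are 5 bases in SNHG1, 6 in SNHG8, 12 in SNHG12 and 11 in MALAT1. These lengths include bases upstream of the start, so they are not lengths of an opening tract. In SNHG8 and MALAT1 the start is the last base of the run, and the rest of it lies upstream. The other RefSeq start of MALAT1 and the RefSeq start of GAS5, which lies upstream of the GENCODE one, fall in no such run. A run of at least 5 C or T spans 9.60% of 35116 RefSeq starts. By annotated transcripts, 6 of 29 for GAS5, 1 of 25 for SNHG1, 1 of 5 for SNHG8 and 4 of 17 for SNHG12 open with C and at least 4 more C or T, against 2.41% of all transcripts and 0 of 17 for MALAT1 and 0 of 8 for NEAT1. Annotated starts are not measured starts, and none was measured in these libraries.

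Of the snoRNAs named for these hosts, only SNORD99 was listed, 1 of 26. SNORD99 (ENSG00000221539, chr1:28578749-28578822, minus strand) lies within SNHG12, is 74 bases long and is contained in none of the exons of the 17 SNHG12 transcripts (0 of 17). It is printed whole, with the letters CTGA, the usual box D of its class, in capitals; 44.8% of annotated snoRNAs of all classes hold those letters in their last 15 bases.
SNORD99: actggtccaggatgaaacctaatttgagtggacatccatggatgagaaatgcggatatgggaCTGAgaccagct
SNORD99 had 71 and 45 counts in A375 with siNC and siLINC01291, and 15 and 13 in SK-MEL-28. The A375 libraries were the higher ones, as for its host, but its treatment ratios were lower in both lines (0.598 of siNC in A375, 95% exact binomial interval 0.402 to 0.881, and 0.852 in SK-MEL-28, interval 0.373 to 1.92), whereas its host went opposite ways. SNORD99 was lower in SK-MEL-28 by a factor of 3.43 (log2 -1.78, SE 0.30, edgeR's quasi-likelihood adjusted p = 0.00177), which DESeq2 did not call (adjusted p = 0.0853). A snoRNA has no poly(A) tail, so these few reads in oligo(dT)-selected RNA cannot be told apart from reads of the unspliced host.

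SNHG6 (ENSG00000245910) is a host on the minus strand of chromosome 8, chr8:66921684-66926398, and carries SNORD87. It had an FPKM of 56.4 and 57.4 in A375 and 41.4 and 46.8 in SK-MEL-28, from 2180, 2284, 1522 and 1718 counts. It was the member that differed least between the lines. Of its 5 annotated transcripts, 3 open with C and at least 4 more C or T.

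Levels between genes rest on the deposited lengths, and these did not match for every host. The length implied by the deposited values equalled the GENCODE 29 exon length for MALAT1 (8829), NEAT1 (22767), SNHG6 (1247) and SNHG12 (4266). It was 4842 bases against 3631 for GAS5, 3970 against 3756 for SNHG1 and 6608 against 923 for SNHG8, a gene that spans only 1115 bases. The FPKM of SNHG8 is therefore low for its counts, and its place at the bottom of the order depends on that length. The GAS5 FPKM is likewise lower than the GENCODE 29 length would give. The lead of SNHG6 over GAS5 in SK-MEL-28 depends on the deposited GAS5 length. The strand setting of the counting is not stated in the labels, so reads in the overlaps of GAS5 with ZBTB37 and GAS5-AS1, of SNHG6 with MCMDC2 and of SNHG12 with TRNAU1AP, all on the opposite strand, are uncertain. ZBTB37 had 1038, 1343, 590 and 604 counts (A375 siNC and siLINC01291, SK-MEL-28 siNC and siLINC01291), and GAS5-AS1 62, 56, 32 and 32.

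The siRNA comparison asks how the transcriptome of each line differed after LINC01291 was targeted. Within a line there is 1 library a group and no test, so a ratio is given with a 95% exact binomial (Clopper-Pearson) interval that covers counting error only. Levels in this comparison are CPM (counts scaled by depth, here with TMM factors). In A375 NEAT1 and SNHG8 were higher and SNHG1, SNHG12 and GAS5 were lower with siLINC01291. In SK-MEL-28 SNHG8, SNHG12 and SNHG6 were higher and MALAT1 and SNHG1 were lower. Only SNHG1 and SNHG8 had intervals on the same side of 1 in both lines. Over both lines together, none of the 7 passed the test.

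The nuclear RNAs did not move together. NEAT1 was at 815 CPM with siNC and 1059.8 with siLINC01291 in A375, a ratio of 1.30 (interval 1.28 to 1.32), and at 589.6 and 588 in SK-MEL-28, a ratio of 0.997 (0.975 to 1.02). Its A375 ratio was above that of 90.8% of the genes expressed in that line, and its SK-MEL-28 ratio was above 47.2%. MALAT1 was at 252 and 259 CPM in A375, a ratio of 1.03 (0.996 to 1.06), and at 129 and 113 in SK-MEL-28, a ratio of 0.877 (0.836 to 0.920). The higher NEAT1 level with siLINC01291 was seen in the A375 pair and the lower MALAT1 level in the SK-MEL-28 pair, but the differences between the lines were not tested. Over both lines NEAT1 was 0.19 higher on the log2 scale (SE 0.10) and MALAT1 0.07 lower (log2 -0.07, SE 0.09), with adjusted p = 0.419 and 0.753 by edgeR's quasi-likelihood test.

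Among the hosts, SNHG1 was lower with siLINC01291 in both pairs. It was at 189.9 and 152 CPM in A375, a ratio of 0.799 (0.770 to 0.829), and at 84.7 and 75.6 in SK-MEL-28, a ratio of 0.892 (0.840 to 0.946). Over both lines its log2 difference was -0.25 (SE 0.09), with an unadjusted p of 0.0333 and an adjusted p = 0.250 in edgeR's quasi-likelihood test, so the difference did not pass. SNHG8, host of SNORA24, was higher in both pairs, at 35.1 and 38.5 CPM in A375 (ratio 1.10, 1.01 to 1.19) and at 26.3 and 32.5 in SK-MEL-28 (ratio 1.24, 1.12 to 1.36). Its log2 difference over both lines was 0.22 (SE 0.11, edgeR adjusted p = 0.363).

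SNHG12 took opposite directions in the lines, beyond counting error in each. It was at 43.8 CPM with siNC and 33.1 with siLINC01291 in A375, a ratio of 0.755 (0.698 to 0.817), and at 18.0 and 22.5 in SK-MEL-28, a ratio of 1.25 (1.11 to 1.41). It lay above 7.48% of the expressed genes in A375 and above 84.5% in SK-MEL-28. The log2 ratios of SNHG12 differed by 0.73 between the lines, the widest gap of the 7, and the gap was not tested because an interaction term leaves no residual degree of freedom. GAS5 was at 355 and 308 CPM in A375 (ratio 0.868, 0.845 to 0.891) and at 185 and 192 in SK-MEL-28 (ratio 1.04, 0.998 to 1.08). SNHG6 was at 67.6 and 66.8 CPM in A375 (ratio 0.989, 0.932 to 1.05) and at 55.3 and 61.4 in SK-MEL-28 (ratio 1.11, 1.03 to 1.19). The A375 values of MALAT1 and SNHG6 and the SK-MEL-28 values of NEAT1 and GAS5 had intervals that include 1. Of these, the signs of the SNHG6 and NEAT1 values changed with the scaling of the libraries. Over both lines the log2 differences of SNHG12, GAS5 and SNHG6 were -0.06 (SE 0.18), -0.08 (SE 0.09) and 0.07 (SE 0.10), with adjusted p = 0.908, 0.746 and 0.796 in edgeR's quasi-likelihood test.

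**Figure D2:**
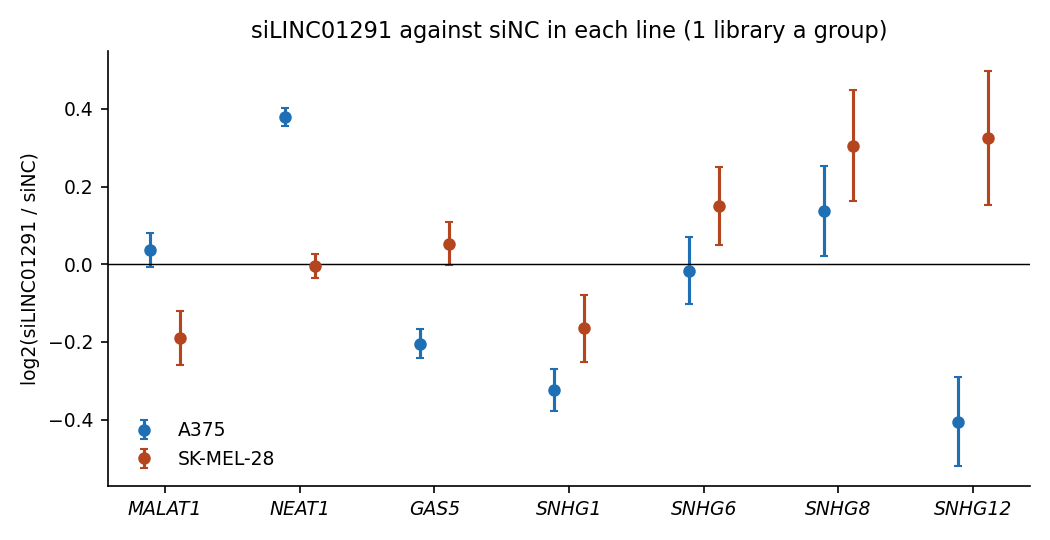
Log2 ratio of siLINC01291 to siNC (vertical axis) of the 7 long RNAs in A375 (blue) and SK-MEL-28 (orange), 1 library a group; bars are 95% exact binomial intervals for counting error only. SNHG1 lies below 0 and SNHG8 above 0 in both lines, the A375 point of NEAT1 is at 0.38 with the SK-MEL-28 point near 0, and SNHG12 has its A375 point at -0.40 and its SK-MEL-28 point at 0.32.

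Of the 7 RNAs, 0 passed an adjusted p of 0.05 over both lines in edgeR's quasi-likelihood test, against 0.896% of the 13501 genes tested (30 rose and 91 fell). At an unadjusted p under 0.05 the count was 1 of 7, SNHG1, against 16.9% of all genes tested (2282 of 13501), so it is near the background. DESeq2, limma and the fit without the line as a block called 0 of the 7. Their median log2 difference was -0.06, against 0.01 over all genes tested. Within the lines, 1.2-fold was taken as a mark after the values had been seen. In A375 the count past it was 1 higher (NEAT1) and 2 lower (SNHG1, SNHG12), against 15.5% of expressed genes higher and 13.9% lower. In SK-MEL-28 the count was 2 higher (SNHG8, SNHG12) and 0 lower, against 19.6 and 15.8% of expressed genes. With 7 RNAs these counts are near the background shares.

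**Figure D3:**
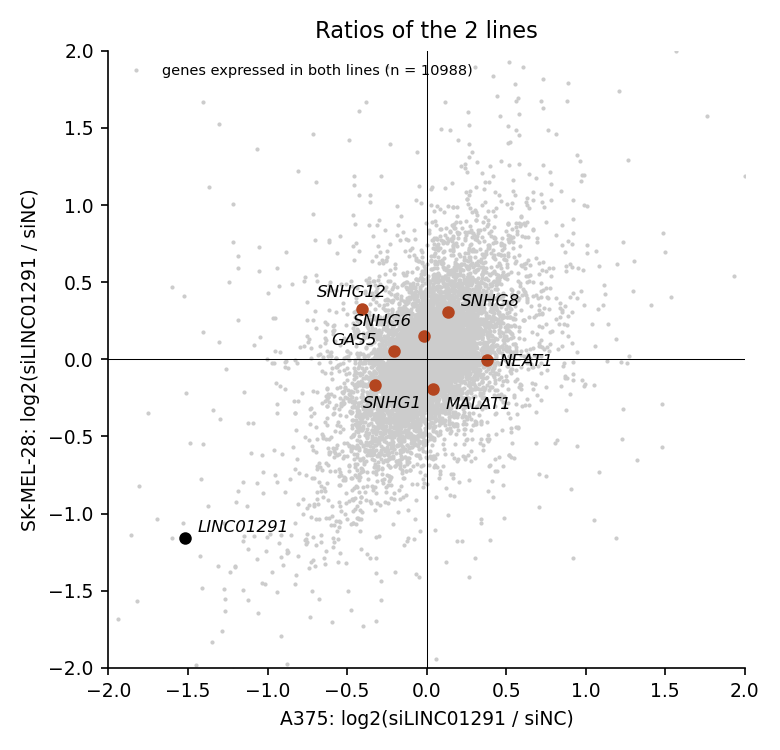
Log2 ratio of siLINC01291 to siNC in A375 (horizontal axis) against SK-MEL-28 (vertical axis) for 10988 genes expressed in both lines (grey), the 7 long RNAs (orange) and LINC01291 (black); 16 genes lie outside the axes. LINC01291 lies at -1.52 and -1.16, away from the grey cloud, and the 7 long RNAs lie within the cloud, with SNHG12 in the upper left and NEAT1 to the right of 0.

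Gene lists around these RNAs were read by their counts and medians, beside a share of 16.9% at an unadjusted p under 0.05 and a median of 0.01 over all genes tested. Of 24 other snoRNA-host long RNAs, 21 were tested and 0 rose or fell; their median log2 difference was 0.01 over both lines, -0.05 in A375 and 0.11 in SK-MEL-28. SNHG30 had the highest difference among them, 0.46 (SE 0.17, edgeR adjusted p = 0.244), with 0.19 in A375 against 0.73 in SK-MEL-28; it was the only 1 at an unadjusted p under 0.05. SNHG21 had the lowest, -0.42 (SE 0.21, edgeR adjusted p = 0.377). The list of protein-coding genes that host snoRNAs was a selection that left out ribosomal protein genes, which are given apart below. Its 17 genes had 0 calls, 4 at an unadjusted p under 0.05 and a median of -0.09. Among them NOP56, which encodes a core protein of box C/D snoRNA particles, was at -0.43 in A375 against -0.28 in SK-MEL-28 (edgeR adjusted p = 0.112). The 18 snoRNA particle proteins and assembly factors had 0 calls, 3 at an unadjusted p under 0.05 and a median of -0.07. NOP58, the partner of NOP56, was at -0.42 and -0.36 (edgeR adjusted p = 0.101), and NOLC1, a nucleolar and Cajal body protein, at 0.56 and 1.67 (edgeR adjusted p = 0.101). DESeq2, limma and the fit without the block called 0 in these 3 lists, while edgeR with no expression filter called NOLC1 (log2 1.10, adjusted p = 0.0326).

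The proteins that bind in the bodies of NEAT1 and MALAT1 had medians a little below 0, without a call in the test as fitted here. The 19 paraspeckle proteins had 0 calls, 7 at an unadjusted p under 0.05 (all genes tested: 16.9%) and a median log2 difference of -0.14; it was -0.18 in A375 and -0.13 in SK-MEL-28. RBM12, an RNA-binding protein of the list, was at -0.32 in A375 against -0.44 in SK-MEL-28 (edgeR adjusted p = 0.109). The 20 nuclear speckle proteins had 0 calls, 9 at an unadjusted p under 0.05 and a median of -0.15. SON, a scaffold of speckles, was at -0.29 and -0.61 (edgeR adjusted p = 0.107) and was the 1 call that DESeq2 made among all these genes other than ribosomal proteins. U2AF1, a splicing factor of which a near-identical copy makes counts uncertain, was at 0.63 and 1.00 (edgeR adjusted p = 0.0696). Limma and the fit without the block called 0 in both lists, while edgeR with no expression filter called U2AF1 (log2 0.81, adjusted p = 0.0265).

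The 17 factors of nonsense-mediated decay, the route that degrades several host transcripts, had 0 calls, 1 at an unadjusted p under 0.05 and a median of -0.01. Ribosomal protein messages are known for the opening pyrimidine tract, which was not searched for here. The 85 cytosolic ribosomal protein genes, taken by symbol, had a median of 0.00, with 5 at an unadjusted p under 0.05 (all genes tested: 16.9%). RPL5 was the only 1 of them that fell, by 1.24 on the log2 scale (SE 0.12, edgeR adjusted p = 0.0148), from 662 to 327 CPM in A375 and from 697 to 254 in SK-MEL-28. DESeq2 called RPL5 as well, and limma and the fit without the block called 0 of the 85. Of 28 other abundant long RNAs, 16 were listed and 13 tested, with 0 calls, 3 at an unadjusted p under 0.05 and a median of -0.07. TUG1, a long RNA found in nucleus and cytoplasm, was at -0.22 in A375 against -0.51 in SK-MEL-28 (edgeR adjusted p = 0.173). The lists of decay factors and other long RNAs had 0 calls by DESeq2 and limma as well.

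The second comparison sets the lines against each other, with the siRNA as a term. Both A375 libraries lay above both SK-MEL-28 libraries for 7 of the 7 RNAs, which was the case for 42.4% of all genes tested and 12 of 21 other hosts. In edgeR's quasi-likelihood test 6 of the 7 were lower in SK-MEL-28, all but SNHG6, where 72.4% of all genes tested were called and 36.3% were called lower. Each line is 1 culture source, so the line and anything else particular to its cultures cannot be told apart, and in bulk RNA fewer transcripts per cell and a different mix of cells cannot either. Summed mitochondrial counts were higher in SK-MEL-28 and the melanocytic markers too, as given above; their part in the difference was not tested.

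Both nuclear RNAs were lower in SK-MEL-28. MALAT1 was lower by a factor of 2.12 (log2 -1.08, SE 0.09, edgeR's quasi-likelihood adjusted p = 8.7e-05), with A375 at 1.96 times the level of SK-MEL-28 under siNC and 2.29 times under siLINC01291. NEAT1 was lower by a factor of 1.58 (log2 -0.66, SE 0.10, edgeR adjusted p = 0.00134), with 1.38 times under siNC and 1.80 times under siLINC01291. The line difference was the wider one with siLINC01291 for both, which restates their within-line siRNA ratios and was not tested.

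Among the hosts, SNHG1 was lower by a factor of 2.12 (log2 -1.09, SE 0.09, edgeR adjusted p = 7.8e-05), SNHG12 by 1.89 (log2 -0.92, SE 0.18, edgeR adjusted p = 0.00375) and GAS5 by 1.75 (log2 -0.81, SE 0.09, edgeR adjusted p = 0.000331). SNHG8 was lower by 1.26 (log2 -0.33, SE 0.11, edgeR adjusted p = 0.0289), but did not pass with DESeq2 (adjusted p = 0.146) or without the siRNA as a block (edgeR adjusted p = 0.108). SNHG6 was 0.20 lower (log2 -0.20, SE 0.10, edgeR adjusted p = 0.0990), and passed in 4 of 9 alternatives: with library totals (edgeR adjusted p = 0.0124), upper-quartile factors (edgeR adjusted p = 0.0193) and limma on log2(FPKM + 1) and log2(FPKM + 0.1) (adjusted p = 0.00851 and 0.00939). For all 5 hosts the A375 excess was wider under siNC than under siLINC01291: 2.44 and 1.47 times for SNHG12, 2.24 and 2.01 for SNHG1, 1.91 and 1.60 for GAS5, 1.33 and 1.19 for SNHG8, and 1.22 and 1.09 for SNHG6. This restates the within-line siRNA ratios of the hosts, and how many of all genes tested show the same order was not counted. The intervals of those ratios overlap between the lines for SNHG8 (1.01 to 1.19 in A375, 1.12 to 1.36 in SK-MEL-28) and SNHG6 (0.932 to 1.05 and 1.03 to 1.19). MALAT1 and NEAT1 had the reverse order, and none of these differences was tested.

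**Figure D4:**
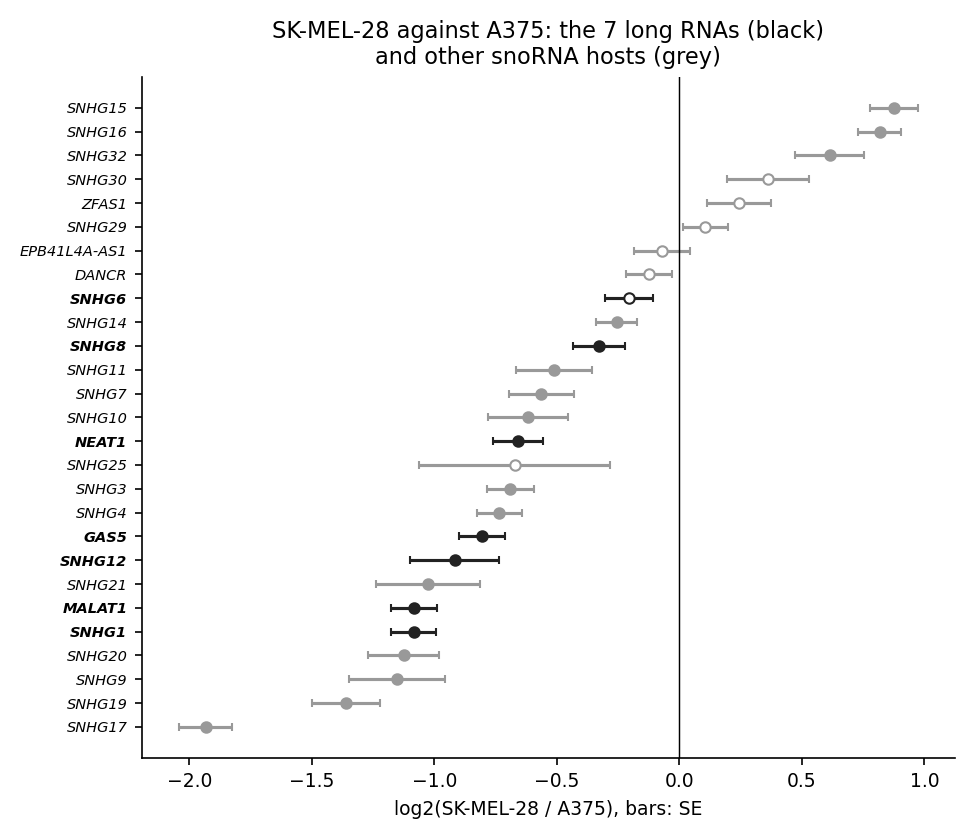
Log2 ratio of SK-MEL-28 to A375 (horizontal axis) from edgeR for the 7 long RNAs (black, bold names) and 20 other snoRNA-host long RNAs (grey); bars are SE, and filled points have an adjusted p under 0.05. The black points lie between -1.09 (SNHG1) and -0.20 (SNHG6) and the grey ones between -1.93 (SNHG17) and 0.88 (SNHG15); SNHG26, at 7.11, is left out for scale.

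Lower levels in SK-MEL-28 were not shared by every snoRNA host. Among the 21 other host RNAs, 11 were lower in SK-MEL-28, 4 were higher and 6 did not pass, with a median log2 difference of -0.51, against -0.81 for the 7 RNAs and -0.02 for all genes tested. SNHG17 had the widest lower value at -1.93, followed by SNHG19 at -1.36. SNHG15 and SNHG16 were higher in SK-MEL-28 at 0.88 and 0.82. SNHG26 had 5 and 6 counts in A375 and 719 and 589 in SK-MEL-28. The 17 listed protein-coding hosts had 7 higher and 8 lower, with a median of -0.00. The 85 ribosomal protein genes had 11 higher and 43 lower, with a median of -0.21. Of the paraspeckle proteins 15 of 19 were lower in SK-MEL-28 and 1 was higher (median -0.52), and of the nuclear speckle proteins 11 of 20 were lower and 1 was higher (median -0.27). Of the snoRNA particle proteins 9 of 18 were lower and 4 higher (median -0.33), and of the decay factors 7 of 17 were lower and 4 higher (median -0.17). The other abundant long RNAs leaned the other way. Of the 13 tested, 6 were higher in SK-MEL-28, 3 were lower and 4 did not pass (median 0.20).

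The genes with profiles closest to MALAT1, NEAT1 and GAS5 were found among 5438 candidates by the root mean square difference of their centred log2 levels over the 4 libraries. Closest to MALAT1 were CNN2 at 0.0226, YY1AP1 at 0.0343 and AASDHPPT at 0.0384. Closest to NEAT1 were PCDHGC3 at 0.0351, UBR1 at 0.0696 and OTUD4 at 0.0720. Closest to GAS5 were OGT at 0.00517, SURF6 at 0.0102 and YBX3 at 0.0124. With 4 libraries and so many candidates, close matches arise readily, and the distances describe these libraries only.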

How the data were processed

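RNA was measured in 4 libraries, 1 for each line and siRNA. Per the labels' protocols, RNA was enriched with oligo(dT), and reads went through fastp, which also removed duplicates, a filter for ribosomal RNA, HISAT2 for alignment, StringTie for assembly and HTSeq for counting. Named in the submitters' processing notes are hg19, DESeq2 and edgeR. The annotation release and strand setting are not given in the sources used here, so coordinates come only from GENCODE 29 on GRCh38 and, for the RefSeq starts, GRCh38.p14. The authors deposited whole-number counts, not normalised. The deposited CPM are the authors' counts scaled to each library's total. The deposited FPKM are the authors' CPM over 1 length per gene. The deposited TPM were not used for comparisons. Counts outside the table made up 0.215 to 0.343% of a library.

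Within a line, log2 ratios of TMM-normalised counts used a prior count of 2 (edgeR 4.0.16, R 4.3.3). Genes expressed in a line had an FPKM of 1 or more in either library. The 13501 genes that had an FPKM of 1 or more in 2 or more libraries were tested with edgeR's quasi-likelihood method, line and siRNA as terms, 1 residual degree of freedom and Benjamini-Hochberg adjusted p-values. Libraries were paired by their shared cell line. Alternatives were DESeq2 1.42.0, limma 3.58.1 on log2 FPKM, other scalings, filters and prior counts, and no block. The fitting was tested on simulated data. Named genes were the 8 long RNAs, LINC01291, list members called over both lines, up to 4 others per list with the largest difference, of which a part is given, and the 3 closest profiles. Sequences were searched in GENCODE 29 transcripts and RefSeq promoters. Members, lists and searches were chosen with earlier results of these data known. A few items are not reported here.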

Additional observations from a re-analysis of the deposited data

Results flagged for a closer look

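For 5 of the 7 RNAs the log2 ratios of siLINC01291 to siNC had opposite signs in the lines. The ratio in SK-MEL-28 minus that in A375 was 0.73 for SNHG12 (-0.40 in A375, 0.32 in SK-MEL-28), 0.26 for GAS5 (-0.20 and 0.05) and 0.17 for SNHG6 (-0.02 and 0.15). It was -0.38 for NEAT1 (0.38 and -0.00) and -0.23 for MALAT1 (0.04 and -0.19). These differences were not tested, since an interaction term leaves no residual degree of freedom. In SNHG12 alone the counting intervals of both lines excluded no change. The signs of NEAT1 in SK-MEL-28 (-0.028 to 0.023) and of SNHG6 in A375 (-0.016 to 0.024) changed with the scaling, and where they do the count is below 5. Opposite signs were found for 4881 of the 13501 genes tested.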

How the results depend on the processing

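Over both lines, the number of genes higher with siLINC01291 was 30, and it was 99 with DESeq2, 48 with upper-quartile factors, 146 with no expression filter, 5 at an FPKM of at least 5, 1 with limma on log2(FPKM + 1) and 0 with limma on log2(FPKM + 0.1). The number lower was 91, and it was 203, 238, 27, 5 and 0 with DESeq2, no filter, the FPKM of 5, and limma with 1 and 0.1. Without the cell line as a replicate block, edgeR called 0 higher and 0 lower (51 at an unadjusted p under 0.05, against 2120 for limma with 0.1 and 2282 with the block). In the comparison of the lines the block is the siRNA, and leaving it out moved no call of the 7 RNAs other than SNHG8. None of the 7 passed the siRNA test in any of the 9 alternatives; the lowest adjusted p was 0.229 (SNHG1, edgeR with no filter). Between the lines, an FPKM of at least 5 gave 3003 genes higher and 2997 lower in SK-MEL-28, of 7997. Library totals shifted the median line difference by -0.17, and 5 to 7 of the 7 RNAs were called lower in SK-MEL-28 under all settings. NOP56, 0.09 higher in SK-MEL-28, was at -0.032 with upper-quartile factors, at -0.073 with library totals, and at -0.071 and -0.072 with limma on log2(FPKM + 1) and log2(FPKM + 0.1). Within A375, 1130 genes in place of 1844 were at least 1.2-fold lower with the deposited FPKM plus 1. High counts keep counting error small for the 7 RNAs, but 4 libraries leave 1 residual degree of freedom, and within a line there is no replicate.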
